A study of Mus musculus with 21 samples.

Results

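The 42 genes described here encode the degradative enzymes of the lysosome, proteins of its membrane, subunits of its proton pump and the transcription factors that control many of them. They were chosen by name, as the rows of the liver count table whose Ensembl identifier maps to the listed mouse symbols on GRCm38, and all 42 were found among the 52636 identifiers of the table. The members comprise 13 proteases, 9 enzymes that act on glycans, 5 lipid hydrolases or their cofactors, 6 membrane proteins or sterol carriers, 6 genes of the vacuolar ATPase (V-ATPase) and the 3 transcription factor genes Tfeb, Tfe3 and Mitf. Livers came from wild-type mice in 3 groups. The first had been on CDA-HFD, a high-fat diet with defined amino acids and no choline that is used to induce steatohepatitis and fibrosis, for 8 weeks (n = 8), and the second on the same diet for 16 weeks (n = 8). The third had been on normal chow for 8 weeks and is labelled week 0 (n = 5). No chow livers stand beside the 16-week livers, so a longer diet and older animals cannot be told apart at 16 weeks. Strain, sex, age and batch are not given in the labels used here.

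Lysosomes take up material by endocytosis, phagocytosis and autophagy and break it down at acidic pH. The V-ATPase pumps protons into the lumen through a membrane sector, V0, driven by a cytosolic sector, V1, and the cathepsins, glycosidases and lipases work in the resulting acid. The MiT/TFE factors TFEB, TFE3 and MITF bind E-box-like motifs in promoters of lysosomal genes and raise their transcription. In liver, hepatocytes use lysosomes mainly for autophagy and lipid turnover, while macrophages hold many lysosomes for the degradation of engulfed cells and lipid.

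Total counts ran between 29037525 and 45868842 per library at 8 weeks on CDA-HFD, 35254088 and 48901145 at 16 weeks, and 33522456 and 42586342 on chow. More than 1 library at 8 weeks stood apart. In replicate 3, mitochondrial genes took 0.250% of all counts, against 2.22 to 3.18% in the other 7 libraries at 8 weeks, 2.37 to 3.15% at 16 weeks and 4.23 to 5.34% on chow. The same library held 1731 CPM (counts scaled to library size) over 10 squamous epithelium markers, where no other library exceeded 267 CPM, and 2700 CPM over 8 skeletal muscle markers. Exocrine pancreas markers reached 7914 CPM in 8-week replicate 4 and 348 CPM in 8-week replicate 5, against at most 3.74 CPM at 16 weeks and 2.23 CPM on chow. The values below use all 21 libraries. Those obtained without 8-week replicate 3 are given beside many of them, but not for single genes outside the members. Summed over 10 hepatocyte markers, every library held at least 77758 CPM. CPM were scaled by library size and a composition factor (TMM), and a gene was called higher or lower at a Benjamini-Hochberg adjusted p under 0.05 in edgeR's quasi-likelihood test over 17104 genes. The composition factor was 0.496 in 8-week replicate 3 and 0.884 to 1.17 in the other 7 libraries at 8 weeks. It was 1.15 to 1.30 at 16 weeks and 0.811 to 0.879 on chow. A low factor raises every CPM of its library, so all CPM of replicate 3 are scaled up relative to its group.

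Lysosomal genes took a larger share of the liver transcriptome in every CDA-HFD library than in any chow library. The 42 genes together held 0.934 to 1.47% of all counts at 8 weeks (median 1.27%), 1.34 to 2.05% at 16 weeks (median 1.69%) and 0.622 to 0.664% on chow (median 0.659%). These shares use raw counts without the composition factor, as does the scaling to total counts alone given below. Under that scaling the median log2 fold change of all genes was itself 0.28 at 8 weeks and 0.56 at 16 weeks. With the composition factor, the 42 genes summed to 10507 to 24022 CPM at 8 weeks (median 12588). Their sum was 11646 to 15788.5 CPM at 16 weeks (median 13534.5) and 7322 to 8126 CPM on chow (median 7673). At 8 weeks 24 of the 42 genes were higher than on chow and 3 were lower, while 30.8% of all genes tested were called higher and 20.5% lower. At 16 weeks 21 were higher and 4 lower, against 29.4% and 22.5% of all genes. The median log2 fold change of the 42 genes was 0.58 at 8 weeks, where that of all genes tested was 0.16, and 0.58 at 16 weeks, where that of all genes was 0.03. Rises of at least 2-fold were called for 14 members at each time, against 20.5% of all genes at 8 weeks and 22.2% at 16 weeks. Both comparisons share the chow libraries. Without 8-week replicate 3 the counts were 26 higher and 3 lower at 8 weeks and 26 higher and 6 lower at 16 weeks, against 31.5% and 25.8%, and 34.9% and 31.4%, of all genes. At least 2-fold rises then numbered 11 at 8 weeks and 14 at 16 weeks. With 8-week replicates 3, 4 and 5 left out together, 25 members were higher and 4 lower at 8 weeks (29.2% and 23.7% of all genes), and 27 higher and 6 lower at 16 weeks (34.9% and 31.6%). With libraries scaled to total counts alone, 25 members were higher and 1 lower at 8 weeks (35.2% and 9.76% of all genes), and 31 higher and 0 lower at 16 weeks (49.4% and 5.76%). Of all genes called, 78.3% were then higher at 8 weeks and 89.5% at 16 weeks, against 60.1% and 56.6% with the composition factor. All libraries of a CDA-HFD group lay above all chow libraries for 19 members at 8 weeks (15.3% of all genes) and 24 at 16 weeks (27.2%). Without replicate 3 that was so for 23 members at 8 weeks (19.4%). They lay below all chow libraries for 2 members at 8 weeks (14.8%; also 2 without replicate 3, 16.4%) and 5 at 16 weeks (23.3%). In bulk RNA, a change in the number of cells that express a gene and a change in RNA per cell cannot be told apart.

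**Figure D1:**
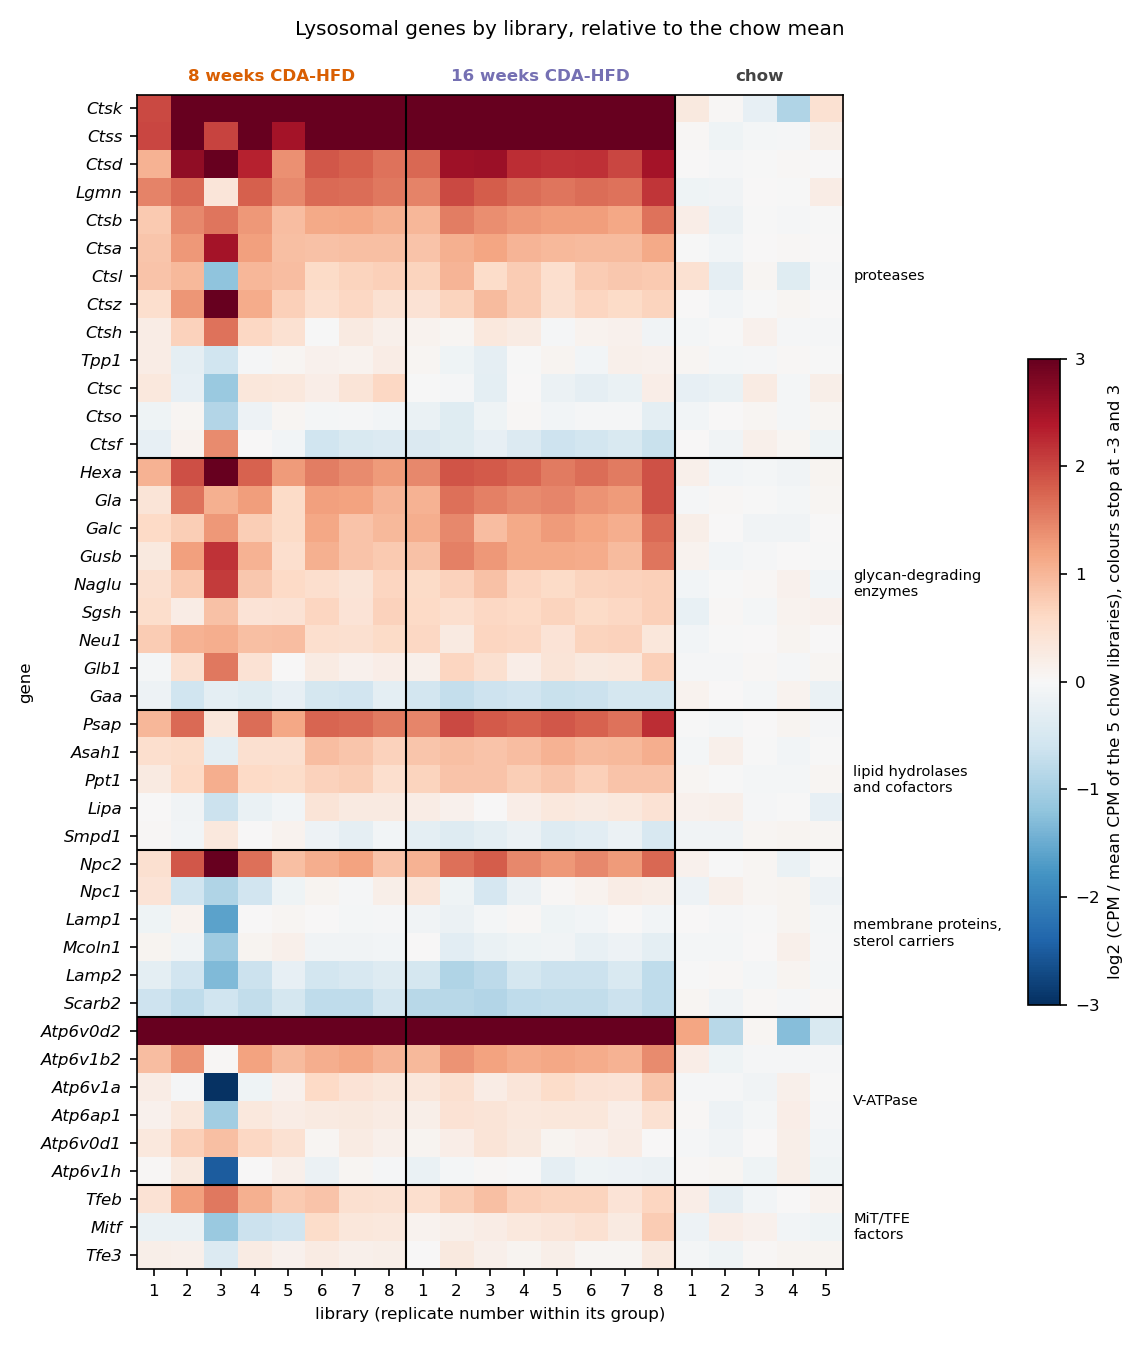
Each row is 1 of the 42 lysosomal genes, grouped by role and ordered within a role by the change at 16 weeks; each column is 1 library. Colour is the log2 ratio of CPM to the mean of the 5 chow libraries, cut at -3 and 3. Ctsk, Ctss and Atp6v0d2 are dark red across the 16-week columns, Scarb2, Lamp2 and Gaa are pale blue, and 8-week replicate 3 breaks the row pattern in several genes, with Atp6v1a and Atp6v1h at their lowest there.

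The promoters of these genes were searched for motifs of the factors named above, since the members share a described promoter element. RefSeq promoters (GRCm38.p6, 250 bases before to 50 after the start) were at hand for 35 of the 42 members; those of Ctsb, Ctsh, Asah1, Npc1, Atp6v0d2, Atp6v1b2 and Atp6v1h were not used here. The palindromic E-box CACGTG, the core of the CLEAR element, was found in 14 of the 35 members (40.0%) and in 8.09% of all 27025 genes with a promoter. Of the 14 genes with the motif, 8 were higher and 1 lower at 8 weeks, and 7 higher and 1 lower at 16 weeks. Of the 21 without it, 11 were higher and 2 lower at 8 weeks, and 10 higher and 3 lower at 16 weeks. The E-box with GT before it and AC after it, the full CLEAR palindrome, was in 0 of 35 members and 0.37% of all genes. The M-box TCATGTG, a MITF motif, was in 6 members (17.1%; Ctsa, Ctss, Tpp1, Gla, Ppt1 and Scarb2) and 4.31% of all genes. The core GAGGAAGT of PU.1, a factor of myeloid cells, was in 4 members (11.4%; Ctsc, Ctss, Gla and Gusb) and 3.69% of all genes. Both strands were searched, and a match describes letters, not binding. The 4 promoters below are printed because they differ in motif and in response: Ctsd with 2 E-boxes and a large rise, Lamp1 with 4 E-boxes and no call, Ctss with no E-box and a large rise, and Ctsk with none of these motifs and a larger one. Capitals mark the E-box, the M-box or the PU.1 core on either strand.
Ctsd promoter, chr7:142387778-142388077, minus strand: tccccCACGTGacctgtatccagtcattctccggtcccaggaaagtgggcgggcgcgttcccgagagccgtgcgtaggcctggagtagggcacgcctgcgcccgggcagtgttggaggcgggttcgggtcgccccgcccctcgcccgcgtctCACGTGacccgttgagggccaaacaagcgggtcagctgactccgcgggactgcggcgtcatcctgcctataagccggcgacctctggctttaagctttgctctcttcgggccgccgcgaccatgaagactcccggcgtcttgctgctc
Lamp1 promoter, chr8:13158911-13159210, plus strand: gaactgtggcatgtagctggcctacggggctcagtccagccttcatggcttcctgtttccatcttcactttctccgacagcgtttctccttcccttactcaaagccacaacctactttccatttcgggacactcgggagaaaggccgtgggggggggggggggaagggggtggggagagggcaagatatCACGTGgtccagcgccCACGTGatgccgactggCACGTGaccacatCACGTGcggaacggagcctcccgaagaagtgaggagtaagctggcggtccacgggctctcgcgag
Ctss promoter, chr3:95526536-95526835, plus strand: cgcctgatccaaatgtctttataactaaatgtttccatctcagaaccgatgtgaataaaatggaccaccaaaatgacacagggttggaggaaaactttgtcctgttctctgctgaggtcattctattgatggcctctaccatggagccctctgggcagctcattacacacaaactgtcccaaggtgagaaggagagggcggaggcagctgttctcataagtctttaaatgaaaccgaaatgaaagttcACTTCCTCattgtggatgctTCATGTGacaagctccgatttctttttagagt
Ctsk promoter, chr3:95498960-95499259, plus strand: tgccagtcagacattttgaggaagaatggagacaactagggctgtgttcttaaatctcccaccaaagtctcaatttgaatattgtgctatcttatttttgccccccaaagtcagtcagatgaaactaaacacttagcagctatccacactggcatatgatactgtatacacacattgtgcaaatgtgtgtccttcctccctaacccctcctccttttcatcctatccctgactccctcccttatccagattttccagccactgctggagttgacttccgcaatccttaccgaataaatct
Shorter windows of 22 bases around the E-box, in capitals, are shown for 1 gene that rose at both times (Lgmn), 1 that fell (Gaa) and 1 that was not called (Mcoln1).
Lgmn E-box window, chr12:102439128-102439149, minus strand: atgtctgtCACGTGgtccattt
Gaa E-box window, chr11:119267815-119267836, plus strand: tgtgcgatCACGTGtttgactc
Mcoln1 E-box window, chr8:3500440-3500461, plus strand: gcgcttgtCACGTGttcagttc

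Among the proteases, 9 of 13 were higher at 8 weeks and 7 at 16 weeks, and none was lower. The shares of all genes were 30.8% higher and 20.5% lower at 8 weeks, and 29.4% and 22.5% at 16 weeks. With 8-week replicate 3 left out these were 9 and 8, with 1 lower at 16 weeks. Their median log2 fold change was 1.20 at 8 weeks (0.81 without replicate 3) and 0.75 at 16 weeks. Cathepsin S (Ctss), a cysteine protease of antigen-presenting cells that trims the MHC class II invariant chain, rose at both times. Ctss (ENSMUSG00000038642) lies on the plus strand at chr3:95526786-95556403 (GRCm38), downstream of Ctsk (ENSMUSG00000028111) at chr3:95499256-95509362 on the same strand. Ctss had 213 to 706 CPM at 8 weeks (median 486), 473 to 969 CPM at 16 weeks (median 742), and 54.3, 48.3, 50.7, 51.4 and 60.2 CPM on chow. No CDA-HFD library came near the chow range. The rise was 8.64-fold at 8 weeks (log2 3.11 ± 0.30 SE, adjusted p = 6.35e-08) and 13.8-fold at 16 weeks (log2 3.79 ± 0.31, adjusted p = 3.98e-09), and 3.21 on the log2 scale at 8 weeks without replicate 3.

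Cathepsin K (Ctsk), the collagen-cleaving protease of osteoclasts, was scarce on chow and rose at both times. It had 3.01 to 20.6 CPM at 8 weeks (median 11.3), 12.9 to 40.7 CPM at 16 weeks (median 19.2), and 0.919, 0.774, 0.641, 0.405 and 1.04 CPM on chow. Even the lowest library on the diet exceeded the highest on chow. The rise was 14.6-fold at 8 weeks (log2 3.86 ± 0.44, adjusted p = 6.45e-07) and 30.6-fold at 16 weeks (log2 4.94 ± 0.46, adjusted p = 2.31e-08).

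The aspartic protease cathepsin D (Ctsd) rose as well, with 1 library setting the size of the 8-week value. Ctsd had 690 to 2105 CPM in 7 of the 8-week libraries and 11792 CPM in replicate 3, 1113 to 2003 CPM at 16 weeks (median 1545), and 340, 327, 332, 344 and 336 CPM on chow. All libraries on the diet lay above all on chow. The log2 fold change was 2.93 ± 0.59 at 8 weeks (adjusted p = 0.000414), 1.88 without replicate 3 (adjusted p = 7.49e-07), and 2.26 ± 0.57 at 16 weeks (adjusted p = 0.00218). Cathepsin Z (Ctsz), a carboxypeptidase, had 2385 CPM in that same library and 383 to 700 CPM in the other 7 at 8 weeks, 376 to 533 CPM at 16 weeks, and 282, 263, 274, 292 and 279 CPM on chow. Every diet library was above every chow library, yet Ctsz was called at 8 weeks (log2 1.37 ± 0.37, adjusted p = 0.00458) and not at 16 weeks (log2 0.65 ± 0.36, adjusted p = 0.136). Without replicate 3 it was called at both, with log2 0.78 (adjusted p = 9.83e-05) and 0.65 (adjusted p = 0.000318).

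Legumain (Lgmn), the asparaginyl endopeptidase that activates other cathepsins, had 106 to 286 CPM at 8 weeks (median 257), 232 to 369 CPM at 16 weeks (median 264), and 75.2, 77.5, 83.0, 82.3 and 96.1 CPM on chow. The lowest 8-week value was that of replicate 3. Lgmn rose 2.87-fold at 8 weeks (log2 1.52 ± 0.18, adjusted p = 1.23e-06) and 3.41-fold at 16 weeks (log2 1.77 ± 0.19, adjusted p = 9.82e-08). Cathepsin B (Ctsb), a broadly expressed cysteine protease, rose 2.30-fold at 8 weeks (adjusted p = 1.36e-06) and 2.52-fold at 16 weeks (adjusted p = 1.92e-07), with no overlap between groups. Ctsb had 1369 to 2425 CPM at 8 weeks, 1578 to 2462 CPM at 16 weeks, and 908, 700, 795, 782 and 792 CPM on chow. Protective protein/cathepsin A (Ctsa), which stabilises β-galactosidase and neuraminidase, rose 2.47-fold (adjusted p = 0.000107; log2 1.30, and 0.996 without replicate 3) and 2.03-fold (adjusted p = 0.000739). It had 273 to 866 CPM at 8 weeks, 278 to 348 CPM at 16 weeks and 145 to 157 CPM on chow, and the groups did not overlap. Cathepsin L (Ctsl) had 354 to 1617 CPM at 8 weeks (median 1407), 1157 to 1666 CPM at 16 weeks (median 1387), and 1125, 673, 848, 630 and 800 CPM on chow. Its 8-week range overlapped chow through replicate 3 alone, and it rose 1.60-fold (adjusted p = 0.0256) and 1.68-fold (adjusted p = 0.0142). The 8-week call of Ctsl was lost without chow replicate 2 (adjusted p = 0.0663), without chow replicate 4 (adjusted p = 0.0726) and with the 8-week and chow groups fitted alone (adjusted p = 0.109). The aminopeptidase cathepsin H (Ctsh) was called higher at 8 weeks and not at 16 weeks (8-week log2 0.60 ± 0.20, adjusted p = 0.0191; 0.35 without replicate 3), with ranges that overlapped chow. Its 8-week call was lost with those 2 groups fitted alone (log2 0.53, adjusted p = 0.105) and without 8-week replicates 3, 4 and 5 (log2 0.28, adjusted p = 0.0534). Ctsh had 231 to 719 CPM at 8 weeks, 216 to 289 CPM at 16 weeks and 225 to 256 CPM on chow.

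Cathepsins C, F and O (Ctsc, Ctsf, Ctso) and tripeptidyl peptidase 1 (Tpp1) were not called at either time. Tpp1 had 96.4 to 170 CPM at 8 weeks, 121 to 161 CPM at 16 weeks, and 151, 139, 141, 149 and 145 CPM on chow, and its log2 difference was 0.00 ± 0.12 at 8 weeks. Ctsf had 23.6 to 95.3 CPM at 8 weeks, 22.2 to 29.8 CPM at 16 weeks, and 35.7, 33.0, 39.4, 36.9 and 32.5 CPM on chow. All 16-week libraries lay below chow, and Ctsf was called lower at 16 weeks once 8-week replicate 3 was left out (log2 -0.47, adjusted p = 0.000743, against -0.46 and adjusted p = 0.12 with it). Ctsc, the dipeptidyl peptidase that activates granule proteases, had 62.7 to 211 CPM at 8 weeks, 112 to 157 CPM at 16 weeks and 115 to 162 CPM on chow. Ctso had 38.3 to 72.8 CPM, 54.7 to 72.0 CPM and 66.2 to 72.7 CPM in 8-week, 16-week and chow livers. Both overlapped chow at both times.

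**Figure D2:**
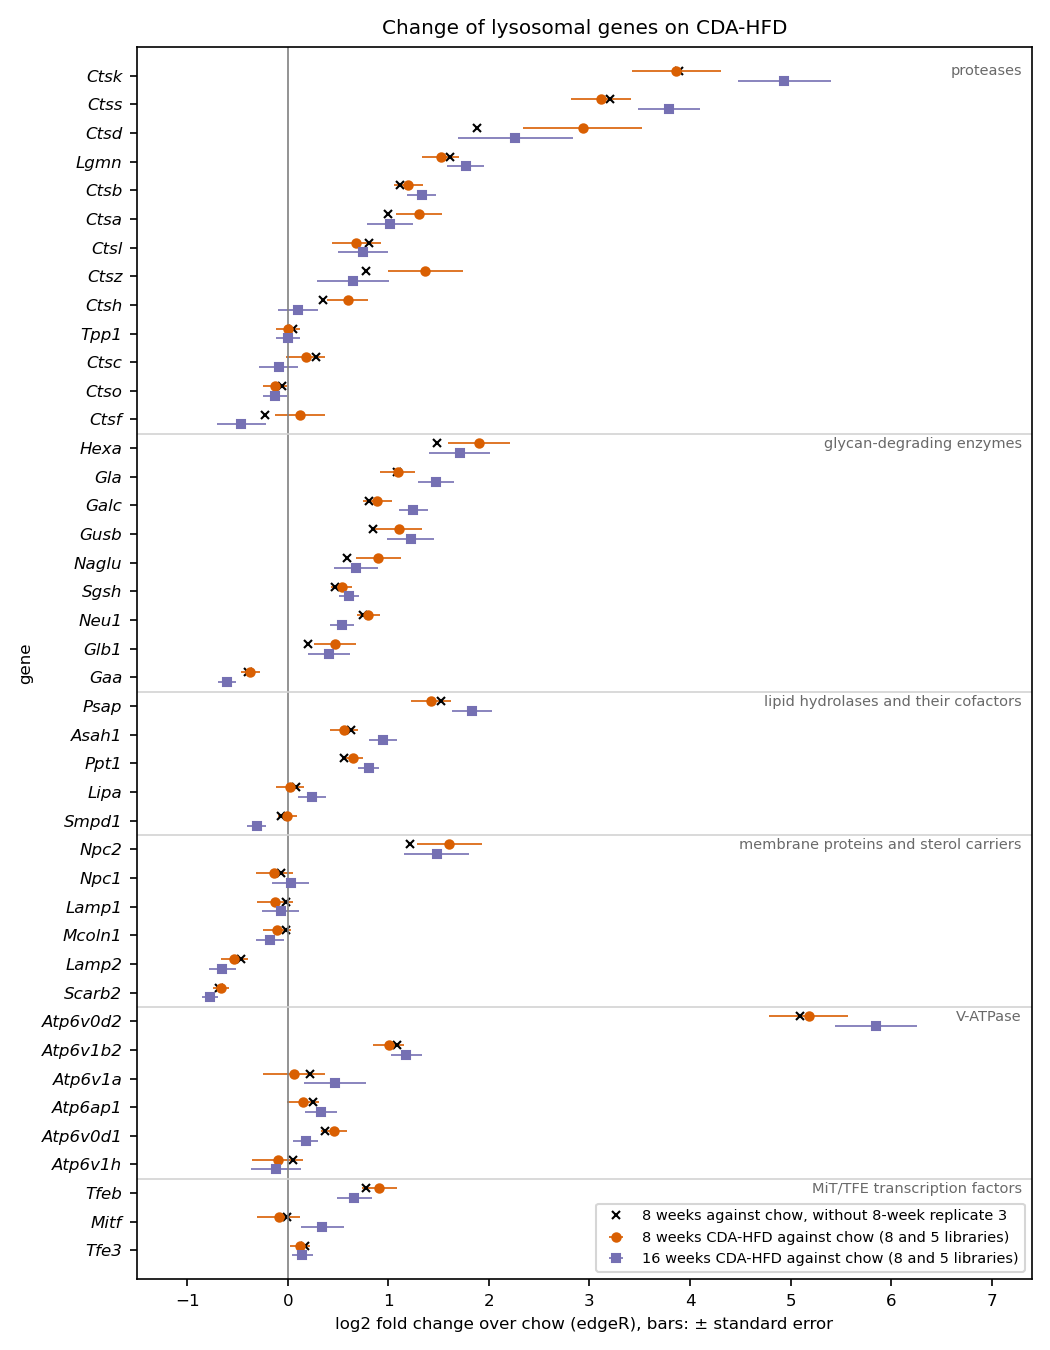
Log2 fold change over chow of each lysosomal gene at 8 weeks (circles) and 16 weeks (squares) on CDA-HFD, with standard errors; crosses give the 8-week value without replicate 3. Atp6v0d2, Ctsk and Ctss lie farthest right, and the crosses depart from the circles most in Ctsd and Ctsz.

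Of the 9 glycan-degrading enzymes, 7 were higher and 1 was lower at each time, with medians of 0.89 at 8 weeks (0.75 without replicate 3) and 0.68 at 16 weeks. For all genes the shares were 30.8% higher and 20.5% lower at 8 weeks, and 29.4% and 22.5% at 16 weeks. Leaving out that library gave 8 higher and 1 lower at 16 weeks and the same counts at 8 weeks. Hexa, the α subunit of β-hexosaminidase that degrades GM2 ganglioside, had 130 to 646 CPM at 8 weeks (median 174), 171 to 236 CPM at 16 weeks (median 206), and 70.0, 59.5, 60.5, 58.3 and 66.1 CPM on chow. The top 8-week value was that of replicate 3, and the groups did not overlap. Hexa rose 3.74-fold at 8 weeks (log2 1.90 ± 0.31, adjusted p = 4e-05; 1.48 without replicate 3) and 3.27-fold at 16 weeks (log2 1.71 ± 0.30, adjusted p = 7.45e-05). α-galactosidase A (Gla), which removes terminal galactose from globotriaosylceramide, had 10.5 to 24.9 CPM at 8 weeks, 16.7 to 30.5 CPM at 16 weeks, and 7.91, 8.23, 7.99, 7.73 and 8.46 CPM on chow. It rose 2.13-fold (adjusted p = 3.53e-05) and 2.78-fold (adjusted p = 5.74e-07), again without overlap.

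Further glycosidases and a sulfatase rose as well. Galactosylceramidase (Galc) rose 1.85-fold at 8 weeks (adjusted p = 4.04e-05) and 2.38-fold at 16 weeks (adjusted p = 3.88e-07). It had 12.6 to 21 CPM at 8 weeks, 16.1 to 27.7 CPM at 16 weeks and 7.91 to 9.60 CPM on chow. β-glucuronidase (Gusb) rose 2.15-fold at 8 weeks (adjusted p = 0.000655; log2 1.10, and 0.85 without replicate 3) and 2.33-fold at 16 weeks (adjusted p = 0.000174). Gusb had 61.1 to 227 CPM at 8 weeks, 91.5 to 153 CPM at 16 weeks and 47.7 to 53.6 CPM on chow. For both genes the highest chow library was below every diet library. The heparan sulfate-degrading enzymes Naglu and Sgsh both rose. Their log2 fold changes were 0.90 ± 0.22 and 0.54 ± 0.10 at 8 weeks (0.59 and 0.47 without replicate 3). At 16 weeks they were 0.68 ± 0.22 and 0.61 ± 0.10. Naglu had 47.3 to 154 CPM at 8 weeks, 53.4 to 66.0 CPM at 16 weeks and 33.8 to 39.4 CPM on chow. Sgsh had 14.1 to 22 CPM, 17 to 19.7 CPM and 10.2 to 13.0 CPM in 8-week, 16-week and chow livers. Neuraminidase 1 (Neu1), which strips sialic acid, rose 1.74-fold (adjusted p = 1.35e-05) and 1.45-fold (adjusted p = 0.000556). Neu1 had 69.2 to 106 CPM at 8 weeks, 60.6 to 80.0 CPM at 16 weeks and 46.8 to 52.4 CPM on chow. In all 5 of these genes every diet library was above every chow library. β-galactosidase (Glb1) was not called at either time (log2 0.47 ± 0.21 and 0.41 ± 0.21), and was called at 16 weeks without 8-week replicate 3 (log2 0.40, adjusted p = 0.00225). Glb1 had 20.5 to 64.1 CPM at 8 weeks, 23.7 to 35.4 CPM at 16 weeks and 21 to 22.3 CPM on chow, and all 16-week libraries were above chow.

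Acid α-glucosidase (Gaa), which degrades glycogen in the lysosome, went the other way. It had 111 to 152 CPM at 8 weeks (median 135), 103 to 118 CPM at 16 weeks (median 112), and 182, 171, 161, 183 and 149 CPM on chow. The 8-week libraries touched the chow range and the 16-week libraries lay below it. Gaa fell by 0.37 ± 0.09 on the log2 scale at 8 weeks (adjusted p = 0.00232) and by 0.60 ± 0.09 at 16 weeks (adjusted p = 1.11e-05). The composition factor matters here: scaled to total counts alone, which moves the median of all genes up by 0.12 at 8 weeks and 0.53 at 16 weeks on the log2 scale, Gaa gave -0.25 (adjusted p = 0.126) and -0.07 (adjusted p = 0.663).

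Among lipid hydrolases and cofactors, 3 of 5 were higher at each time, and 1 was lower at 16 weeks. Beside them, 30.8% of all genes were higher and 20.5% lower at 8 weeks, and 29.4% and 22.5% at 16 weeks. Medians were 0.56 at 8 weeks and 0.80 at 16 weeks, and without 8-week replicate 3 the counts were 3 higher at 8 weeks and 4 higher and 1 lower at 16 weeks. Prosaposin (Psap), the precursor of the saposins that lift sphingolipids to their hydrolases, had 764 to 2029 CPM at 8 weeks (median 1853), 1663 to 2817 CPM at 16 weeks (median 2103), and 602, 577, 606, 636 and 593 CPM on chow. The lowest 8-week library was replicate 3, still above chow. Psap rose 2.69-fold at 8 weeks (log2 1.43 ± 0.20, adjusted p = 6.73e-06) and 3.56-fold at 16 weeks (log2 1.83 ± 0.20, adjusted p = 1.94e-07). Acid ceramidase (Asah1) had 36.6 to 84.8 CPM at 8 weeks, 80.2 to 95.4 CPM at 16 weeks, and 43.2, 49.6, 44.1, 42.5 and 44.3 CPM on chow. It overlapped chow at 8 weeks through replicate 3, and rose 1.47-fold (adjusted p = 0.00234) and 1.93-fold (adjusted p = 8e-06). Palmitoyl-protein thioesterase 1 (Ppt1), which removes fatty acids from proteins, rose 1.56-fold (adjusted p = 4.74e-05) and 1.75-fold (adjusted p = 2.07e-06). Ppt1 had 44.5 to 78.6 CPM at 8 weeks, 59.2 to 67.7 CPM at 16 weeks and 35.6 to 38.9 CPM on chow, with no overlap.

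Lysosomal acid lipase (Lipa), which hydrolyses cholesteryl esters and triglycerides, did not stand apart from chow. It had 229 to 471 CPM at 8 weeks (median 350), 358 to 481 CPM at 16 weeks (median 422), and 391, 395, 347, 355 and 301 CPM on chow. Its log2 difference was 0.02 ± 0.14 at 8 weeks and 0.24 ± 0.14 at 16 weeks (adjusted p = 0.164), and the 16-week value was called without 8-week replicate 3 (0.23, adjusted p = 0.0496). Acid sphingomyelinase (Smpd1) had 73.0 to 110 CPM at 8 weeks, 62.7 to 78.2 CPM at 16 weeks, and 81.3, 81.8, 91.9, 92.7 and 91.3 CPM on chow. All 16-week libraries were below chow, and Smpd1 fell by 0.31 ± 0.10 on the log2 scale there (adjusted p = 0.00943), but gave 0.22 (adjusted p = 0.0964) when scaled to total counts alone.

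Calls among the membrane proteins were few and went both ways. Of 6 members 1 was higher and 2 were lower at each time, with medians of -0.13 at 8 weeks and -0.12 at 16 weeks. Across all genes tested, 30.8% were higher and 20.5% lower at 8 weeks, and 29.4% and 22.5% at 16 weeks. Counts of 1 and 2 of 6 are too small to set apart from these shares. A further member was lower at 16 weeks without 8-week replicate 3. Scarb2 (LIMP-2; ENSMUSG00000029426, chr5:92441314-92506833, minus strand), the receptor that carries β-glucocerebrosidase to the lysosome, had 179 to 212 CPM at 8 weeks (median 190), 165 to 195 CPM at 16 weeks (median 180), and 317, 283, 315, 300 and 314 CPM on chow. No diet library reached the chow range. Scarb2 fell by 0.66 ± 0.08 on the log2 scale at 8 weeks (adjusted p = 1.02e-06) and by 0.77 ± 0.08 at 16 weeks (adjusted p = 6.24e-08). Lamp2, a membrane glycoprotein needed for chaperone-mediated autophagy and for fusion with autophagosomes, had 361 to 756 CPM at 8 weeks (median 632), 480 to 655 CPM at 16 weeks (median 577), and 895, 920, 868, 947 and 864 CPM on chow. Here too the groups did not overlap, and Lamp2 fell by 0.53 ± 0.13 (adjusted p = 0.0028; 0.46 lower without replicate 3) and by 0.65 ± 0.13 (adjusted p = 0.000361). Scaled to total counts alone, the fall of Scarb2 was called at 8 weeks (-0.53, adjusted p = 0.00248) and not at 16 weeks (-0.24, adjusted p = 0.124), and that of Lamp2 at neither time (-0.36, adjusted p = 0.156, and -0.12, adjusted p = 0.631).

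Lamp1, the other major membrane glycoprotein, whose promoter with 4 E-boxes is printed above, was not called. It had 346 to 1122 CPM at 8 weeks (median 1029), 931 to 1067 CPM at 16 weeks (median 986), and 1055, 1020, 1041, 1105 and 998 CPM on chow, with the low 8-week value in replicate 3. Its log2 difference was -0.13 ± 0.18 at 8 weeks (-0.01 without replicate 3) and -0.07 ± 0.18 at 16 weeks. The sterol exporters of the lysosome divided. Npc2, the soluble cholesterol carrier, had 136 to 783 CPM at 8 weeks (median 217), 202 to 342 CPM at 16 weeks (median 264), and 106, 97.3, 102, 84.5 and 96.9 CPM on chow, and rose 3.05-fold (log2 1.61 ± 0.32, adjusted p = 0.000386; 1.21 without replicate 3) and 2.79-fold (log2 1.48 ± 0.32, adjusted p = 0.000558). Npc1, its membrane partner, had a log2 difference of -0.13 ± 0.18 at 8 weeks and 0.03 ± 0.18 at 16 weeks, neither called. It had 65.6 to 164 CPM at 8 weeks, 86.3 to 157 CPM at 16 weeks and 110 to 136 CPM on chow. The calcium channel Mcoln1 (TRPML1) was not called at either time (log2 -0.10 ± 0.14 and -0.18 ± 0.14), and was called lower at 16 weeks without 8-week replicate 3 (-0.18, adjusted p = 0.024). Mcoln1 had 18.3 to 43.2 CPM at 8 weeks, 31.0 to 38.7 CPM at 16 weeks and 36.8 to 42.8 CPM on chow.

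**Figure D3:**
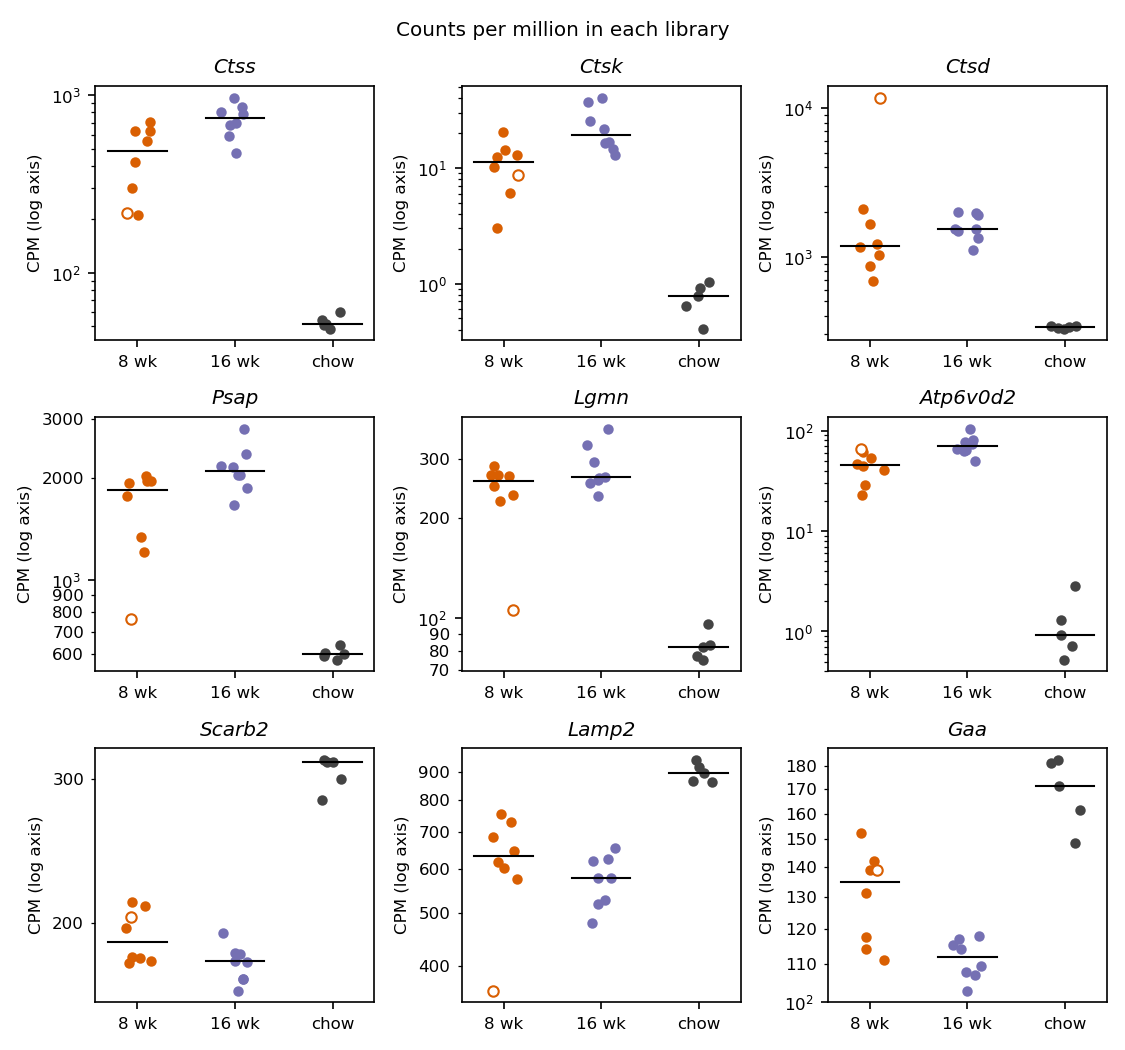
CPM of 9 lysosomal genes in each library on a log axis, at 8 and 16 weeks on CDA-HFD and on chow; lines mark group medians, and the open circle is 8-week replicate 3. Ctss, Ctsk, Ctsd, Psap, Lgmn and Atp6v0d2 lie above chow in all diet libraries, Scarb2 and Lamp2 below it in all, and Gaa overlaps chow at 8 weeks.

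The V-ATPase carried the largest change of the module in 1 subunit. Of its 6 member genes 3 were higher at 8 weeks and 2 at 16 weeks (4 and 4 without 8-week replicate 3), with medians of 0.31 and 0.40, and none was lower. Of all genes 30.8% and 29.4% were higher (31.5% and 34.9% without replicate 3), so 2 of 6 at 16 weeks is near the share of all genes. Atp6v0d2 (ENSMUSG00000028238, chr4:19876841-19922605, minus strand), the d2 form of a V0 subunit that is known from osteoclasts, macrophages and kidney, had 22.8 to 66.1 CPM at 8 weeks (median 45.4), 50.5 to 105 CPM at 16 weeks (median 69.8), and 2.87, 0.717, 1.32, 0.521 and 0.931 CPM on chow. The groups were far apart. Atp6v0d2 rose 36.2-fold at 8 weeks (log2 5.18 ± 0.39, adjusted p = 5.03e-09; 5.09 without replicate 3) and 57.6-fold at 16 weeks (log2 5.85 ± 0.41, adjusted p = 7.31e-10). The ubiquitous form Atp6v0d1 had 105 to 190 CPM at 8 weeks (median 132), 101 to 131 CPM at 16 weeks (median 113), and 98.8, 94.3, 102, 113 and 95.5 CPM on chow, overlapping chow at both times. It was called at 8 weeks (log2 0.46 ± 0.13, adjusted p = 0.00542) and not at 16 weeks (log2 0.18 ± 0.13, adjusted p = 0.252), and the 8-week call was lost with the 2 groups fitted alone (log2 0.39, adjusted p = 0.062). Per kb of exonic length, d2 made up 9.84 to 27.8% of d1 plus d2 transcripts at 8 weeks (median 18.2%), 23.7 to 40.7% at 16 weeks (median 28.5%), and 0.303 to 1.88% on chow (median 0.640%).

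Of the other V-ATPase members, Atp6v1b2, the B2 subunit of the V1 sector, had 71.0 to 176 CPM at 8 weeks (median 144), 137 to 185 CPM at 16 weeks (median 153), and 79.5, 64.0, 68.3, 68.4 and 67.8 CPM on chow. It rose 2.01-fold (adjusted p = 2.29e-05) and 2.26-fold (adjusted p = 2.02e-06), and overlapped chow at 8 weeks through replicate 3. The catalytic A subunit Atp6v1a, the regulatory H subunit Atp6v1h and the accessory protein Atp6ap1 were not called at either time, with log2 differences of 0.07 ± 0.31, -0.10 ± 0.25 and 0.15 ± 0.16 at 8 weeks and 0.47 ± 0.31, -0.12 ± 0.25 and 0.33 ± 0.16 at 16 weeks. Replicate 3 held 8.83 CPM of Atp6v1a, where the other 8-week libraries had 63.0 to 104 CPM. Atp6v1a had 80.1 to 124 CPM at 16 weeks and 64.4 to 76.9 CPM on chow. Atp6v1h had 11.3 to 78.4 CPM at 8 weeks, 53.2 to 65.7 CPM at 16 weeks and 58.0 to 71.5 CPM on chow. For Atp6v1a all 16-week libraries were above chow, and for Atp6v1h the groups overlapped. Without 8-week replicate 3, Atp6ap1 was called at 8 weeks (0.25, adjusted p = 0.00626), and Atp6v1a (0.46, adjusted p = 0.00104) and Atp6ap1 (0.33, adjusted p = 0.000356) at 16 weeks.

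A wider list of V-ATPase genes outside the 42 held 19, of which 14 had enough counts to be tested. At each time 7 of the 14 were higher and 1 was lower, with medians of 0.36 at 8 weeks and 0.45 at 16 weeks. The medians of all genes were 0.16 and 0.03. Their shares were 30.8% higher and 20.5% lower at 8 weeks, and 29.4% and 22.5% at 16 weeks. The V-ATPase counts were 7 and 1 at 8 weeks and 8 and 1 at 16 weeks without 8-week replicate 3. All genes then gave 31.5% and 25.8% at 8 weeks, and 34.9% and 31.4% at 16 weeks. Atp6v0e2, an e subunit of V0, had 2.77 to 11.0 CPM at 8 weeks, 6.62 to 14.2 CPM at 16 weeks, and 1.04 to 2.11 CPM on chow, and rose by log2 1.79 ± 0.34 (adjusted p = 0.00025) and 2.85 ± 0.36 (adjusted p = 1.09e-06). Tcirg1, the a3 subunit of osteoclasts and immune cells, rose by log2 1.60 ± 0.36 (adjusted p = 0.00102) and 1.24 ± 0.35 (adjusted p = 0.00543). At 8 weeks Tcirg1 had 446 CPM in replicate 3 and 63.5 to 119 CPM in the other libraries. It had 91.9 to 129 CPM at 16 weeks and 41.9 to 48.4 CPM on chow. Its counterpart Atp6v0a2 fell by 0.51 ± 0.11 (adjusted p = 0.000939) and by 0.53 ± 0.11 (adjusted p = 0.000433). Called changes among all V-ATPase genes at 16 weeks ran between the fall of Atp6v0a2 and the rise of Atp6v0d2.

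**Figure D4:**
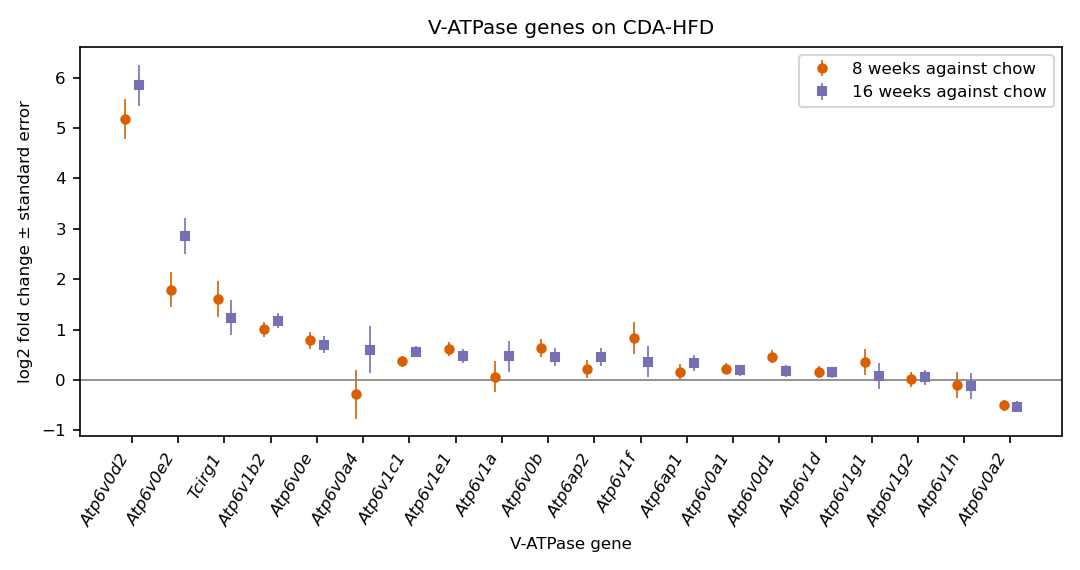
Log2 fold change over chow, with standard errors, of 20 V-ATPase genes tested, at 8 weeks (circles) and 16 weeks (squares). Atp6v0d2 stands alone above 5, Atp6v0e2 and Tcirg1 follow, and Atp6v0a2 is the gene called lower.

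Of the transcription factor genes, Tfeb was the one called at both times. It had 12.9 to 28.5 CPM at 8 weeks (median 16.7), 12.7 to 17.8 CPM at 16 weeks (median 15.2), and 10.8, 7.83, 8.97, 9.59 and 10.3 CPM on chow. Diet and chow libraries did not overlap, and Tfeb rose 1.88-fold at 8 weeks (log2 0.91 ± 0.17, adjusted p = 0.000209; 0.77 without replicate 3) and 1.58-fold at 16 weeks (log2 0.66 ± 0.17, adjusted p = 0.00246). Tfe3 had a log2 difference of 0.12 ± 0.10 at 8 weeks and 0.14 ± 0.10 at 16 weeks, and was called at 8 weeks without replicate 3 (0.17, adjusted p = 0.031). Tfe3 had 36.8 to 58.3 CPM at 8 weeks, 49.3 to 60.3 CPM at 16 weeks and 44.9 to 51.9 CPM on chow. Mitf had a log2 difference of -0.09 ± 0.21 at 8 weeks and 0.34 ± 0.21 at 16 weeks, and was not called with or without that library. It had 3.48 to 11.1 CPM at 8 weeks, 8.08 to 12.9 CPM at 16 weeks and 6.84 to 8.69 CPM on chow, so the groups overlapped. These are transcript levels; the factors are regulated largely by phosphorylation and nuclear entry, which RNA does not measure.

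Ranked by CPM per kb of exonic length, which allows levels to be set side by side between genes, the leading lysosomal transcripts changed. At 16 weeks the order was Psap (782 CPM per kb), Ctsd (686), Ctss (539), Lamp1 (371), Ctsb (331) and Ctsz (303). On chow it was Lamp1 (390 CPM per kb), Psap (220), Ctsz (193), Ctsd (143), Ctsb (131) and Ctsl (126), and Ctss stood at place 12 with 39.0 CPM per kb. Atp6v0d2 stood at place 20 at 16 weeks (26.7 CPM per kb) and at place 42, the last, on chow (0.468). Ctsk stood at place 30 at 16 weeks (15.4 CPM per kb) and at place 41 on chow (0.500). At 8 weeks without replicate 3, Psap (636 CPM per kb), Ctsd (530) and Lamp1 (390) led, with Ctss at place 4 (363). With replicate 3, Ctsd led at 8 weeks (1091 CPM per kb). Exonic lengths are those of GENCODE M21 over all transcripts of a gene, so the isoforms in use can shift these levels.

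**Figure D5:**
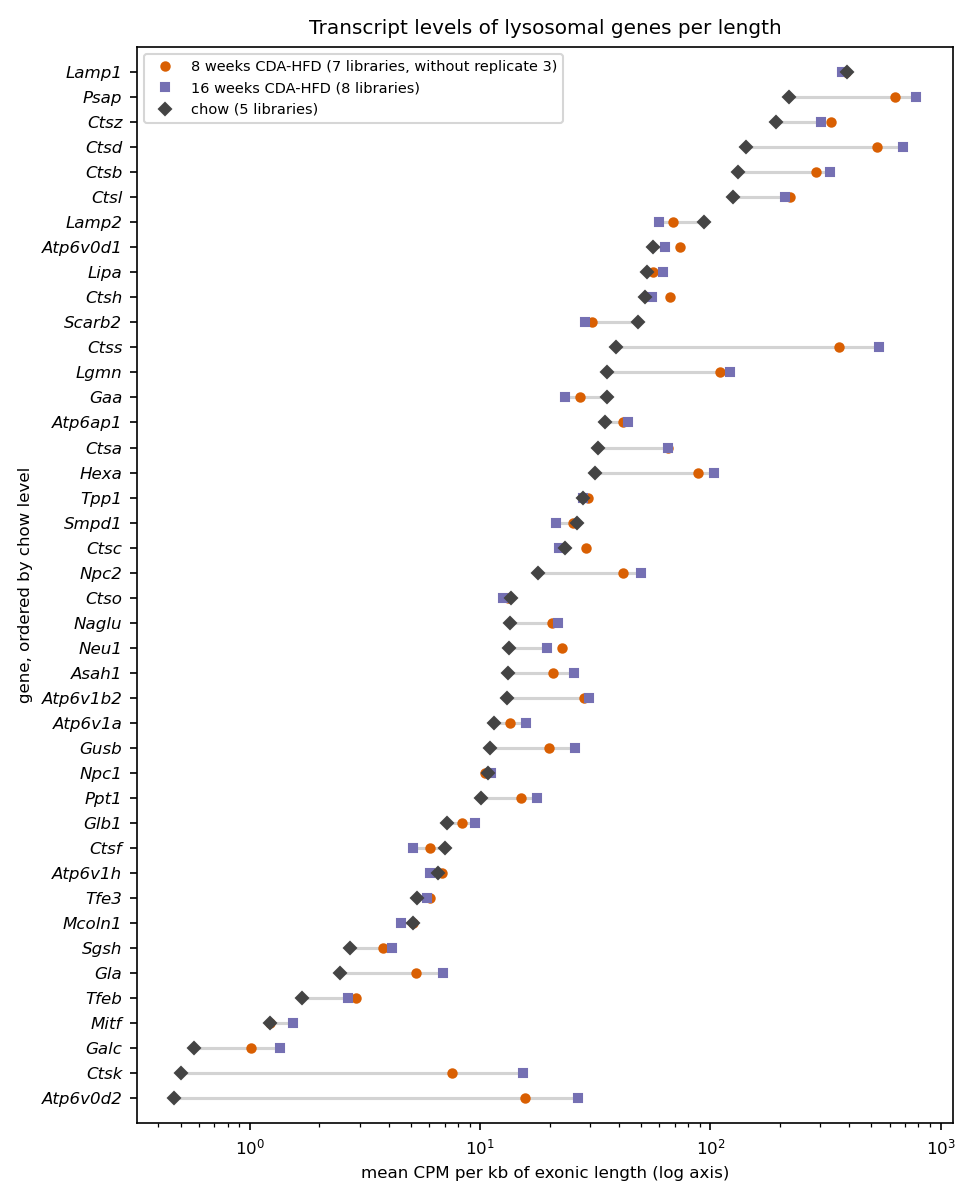
Mean CPM per kb of exonic length on a log axis for the 42 genes, ordered by their chow level: 8 weeks on CDA-HFD without replicate 3 (circles), 16 weeks (squares) and chow (diamonds), with grey lines joining 16 weeks and chow. The longest grey lines are those of Atp6v0d2 (26.7 CPM per kb at 16 weeks, 0.468 on chow), Ctsk and Ctss.

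Between 16 and 8 weeks 7 of the 42 genes differed, a number that moved with the libraries and the scaling used. Called higher at 16 weeks were 4 members, Ctsk, Ctss, Galc and Asah1 (10.6% of all genes were called higher), and 3 were lower, Ctsh, Gaa and Smpd1 (11.0% lower). The median log2 fold change was 0.01, and that of all genes 0.00. Ctsk was 2.10-fold higher at 16 than at 8 weeks (log2 1.07 ± 0.31, adjusted p = 0.0207) and Ctss 1.60-fold (log2 0.68 ± 0.23, adjusted p = 0.0383). Ctsk was the 1 member called with at least a 2-fold rise (5.27% of all genes). Galc (log2 0.36 ± 0.12, adjusted p = 0.0392) and Asah1 (log2 0.39 ± 0.12, adjusted p = 0.0248) were higher by less. Ctsh (log2 -0.49 ± 0.17, adjusted p = 0.049), Gaa (-0.23 ± 0.08, adjusted p = 0.0454) and Smpd1 (-0.31 ± 0.08, adjusted p = 0.0153) were lower. In each of the 7 genes the 2 groups overlapped, and no member had all 16-week libraries above (2.58% of all genes) or below (0.509%) all 8-week libraries. Without 8-week replicate 3 the counts were 7 higher (14.8%) and 3 lower (12.5%). These calls moved with single libraries: 0 members were called higher without 16-week replicate 8, and 7 without 8-week replicate 3 or 8-week replicate 6. The higher calls numbered 2 without 16-week replicate 2, 5 or 6 or 8-week replicate 1 or 5. The lower calls numbered 6 without 8-week replicate 6 and 5 without 8-week replicate 7. They came to 1 when any 1 of 13 other libraries was left out, namely 16-week replicates 1, 2, 4, 5, 6, 7 and 8, 8-week replicates 4 and 5, and chow replicates 1, 2, 3 and 4. Without the 5 libraries highest in squamous transcripts (16-week replicates 1, 4 and 7 and 8-week replicates 3 and 6), 12 members were higher and 8 lower, against 17.7% and 15.9% of all genes. Scaled to total counts alone, 15 members were higher and 0 lower, against 26.0% and 1.43% of all genes.

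Other lysosomal genes, from lists of the same pathway, were also called. Their counts stand beside 30.8% of all genes higher and 20.5% lower at 8 weeks and 29.4% and 22.5% at 16 weeks. Of 26 other lysosomal hydrolases and cofactors, 13 were higher and 2 lower at 8 weeks and 12 and 2 at 16 weeks, with medians of 0.58 and 0.34. Without 8-week replicate 3 they were 15 and 3, and 15 and 4. The hyaluronidase Hyal1 fell by 1.28 ± 0.31 (adjusted p = 0.002) and by 1.48 ± 0.31 (adjusted p = 0.000409). Of 15 other lysosomal membrane proteins tested, 8 were higher and 1 lower at 8 weeks and 7 and 1 at 16 weeks. Without replicate 3 they were 9 and 1, and 9 and 2. The tetraspanin Cd63 rose by log2 4.67 ± 0.53 (adjusted p = 6.04e-07) and 5.03 ± 0.54 (adjusted p = 1.4e-07), and Laptm5, a protein of blood cell lysosomes, by 2.47 ± 0.20 (adjusted p = 1.04e-08) and 2.72 ± 0.20 (adjusted p = 1.57e-09). The sialic acid exporter Slc17a5 fell by 0.96 ± 0.28 (adjusted p = 0.00764) and by 0.82 ± 0.28 (adjusted p = 0.0182).

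Calls among genes that deliver enzymes or material to the lysosome went both ways, with more autophagy genes lower than higher. Of all genes, 30.8% were higher and 20.5% lower at 8 weeks, and 29.4% and 22.5% at 16 weeks. Of 11 genes of mannose 6-phosphate tagging and sorting, 3 were higher and 1 lower at 8 weeks and 2 and 1 at 16 weeks. Without 8-week replicate 3 they numbered 4 and 3, and 4 and 2. With all libraries the gene called lower was the sorting receptor Sort1 (by 0.68 ± 0.15, adjusted p = 0.000728, and by 0.37 ± 0.15, adjusted p = 0.0383). Of 20 autophagy genes, 3 were higher and 5 lower at 8 weeks and 2 and 6 at 16 weeks, and without 8-week replicate 3 they numbered 2 and 7, and 2 and 14. With all libraries the shares called lower, 5 and 6 of 20, are near those of all genes (20.5% and 22.5%). Without replicate 3 the shares called lower, 7 and 14 of 20, are above those of all genes (25.8% at 8 weeks and 31.4% at 16 weeks). The 16-week autophagy count thus moved with 1 library. The autophagy receptor Sqstm1 rose by log2 0.50 ± 0.15 (adjusted p = 0.00979) and 0.70 ± 0.15 (adjusted p = 0.000594). The initiating kinase Ulk1 fell by 0.77 ± 0.24 (adjusted p = 0.0102) and by 0.78 ± 0.24 (adjusted p = 0.00812). Of 18 genes of the mTORC1 and Rag pathway, which holds TFEB in the cytosol, 2 were higher and 4 lower at 8 weeks and 4 and 4 at 16 weeks. These were 4 and 6, and 4 and 5, without 8-week replicate 3. With all libraries the share called lower, 4 of 18 at each time, is near that of all genes. The shares called higher, 2 and 4 of 18, are below it. Tsc1 fell by 0.81 ± 0.16 (adjusted p = 0.000426) and by 0.75 ± 0.16 (adjusted p = 0.000638). Rptor fell by 0.47 ± 0.11 (adjusted p = 0.00173) and by 0.72 ± 0.11 (adjusted p = 1.45e-05). Rragd, a Rag GTPase gene known as a target of the MiT/TFE factors, had 4.54 to 19.9 CPM at 8 weeks, 22 to 42.7 CPM at 16 weeks, and 2.35 to 3.73 CPM on chow. It rose by log2 1.62 ± 0.33 (adjusted p = 0.000396) and 3.51 ± 0.36 (adjusted p = 6.35e-08), with all diet libraries above chow. Of the cystatins, inhibitors of cathepsins, 4 of 10 were tested and 3 rose at both times: Cst7 by log2 3.14 ± 0.44 and 2.98 ± 0.44, Cstb by 1.58 ± 0.25 and 1.91 ± 0.26, and Cst3 by 1.67 ± 0.41 and 1.23 ± 0.40. The other, Fetub of the cystatin superfamily, had 395 to 2471 CPM at 8 weeks, with the top value in replicate 3, 324 to 458 CPM at 16 weeks and 549 to 698 CPM on chow. All 16-week libraries were below chow, and Fetub fell by 0.74 ± 0.30 on the log2 scale there (adjusted p = 0.0454), while its 8-week difference of 0.41 ± 0.31 was not called. Cst3 also had its top 8-week value in replicate 3 (1094 CPM, others 142 to 353 CPM). Cst7 was scarce, with 18 counts in all on chow and at most 1.67 CPM on the diet.

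Macrophage transcripts were also higher in the diet livers. Summed over 14 macrophage markers, levels were 1651 to 9509 CPM at 8 weeks (median 3064), 2730 to 4311 CPM at 16 weeks (median 3666), and 496 to 707 CPM on chow (median 546), with the top value in 8-week replicate 3 and 3717 CPM the highest without it. Of the 14 markers 13 were higher at both times, with Mertk not called, and the medians of their log2 fold changes were 2.48 at 8 weeks and 2.20 at 16 weeks. Of these, Cd68 is also in the list of other lysosomal membrane proteins. Of 8 markers of lipid-associated macrophages 7 were higher at both times, and their sum was 1406 to 2746 CPM at 8 weeks, 2440 to 4574 CPM at 16 weeks and 586 to 779 CPM on chow. Markers of resident Kupffer cells summed to 515 to 1224 CPM at 8 weeks, 239 to 527 CPM at 16 weeks and 308 to 407 CPM on chow. Of these 7 markers 5 were higher and 0 lower at 8 weeks. At 16 weeks 1 was higher and 2 lower, with log2 fold changes of -4.94 to 1.01. All 7 were lower at 16 than at 8 weeks (11.0% of all genes). Hepatocyte markers summed to 102058 to 373731 CPM at 8 weeks (203234 CPM at most without replicate 3), 77758 to 110740 CPM at 16 weeks and 114600 to 157161 CPM on chow. Of these 10 markers 2 were higher and 4 lower at 8 weeks, and 0 and 7 at 16 weeks. Of all genes 30.8% were higher and 20.5% lower at 8 weeks, and 29.4% and 22.5% at 16 weeks. None of the 14 macrophage markers was at 0 in any library.

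Transcripts of some other cell types were higher as well. The counts below stand beside 30.8% of all genes higher and 20.5% lower at 8 weeks, and 29.4% and 22.5% at 16 weeks. Of 10 markers of stellate cells and fibroblasts 8 were higher at 8 weeks and 7 at 16 weeks, and their sum was 781 to 1905 CPM at 8 weeks, 1636 to 2436 CPM at 16 weeks and 284 to 474 CPM on chow. Of 7 bile duct markers 4 were higher at 8 weeks and 7 at 16 weeks, and their sum was 125 to 501 CPM at 8 weeks, 485 to 1549 CPM at 16 weeks and 76.0 to 110 CPM on chow. Neither sum overlapped chow at either time. Of 8 T and NK cell markers 7 were higher and 1, Cd4, was lower at both times, with sums of 7.84 to 54.4 CPM at 8 weeks (38.5 CPM at most without replicate 3), 14.4 to 46.7 CPM at 16 weeks and 7.24 to 9.23 CPM on chow. Of 5 neutrophil markers tested 4 were higher at 8 weeks and 2 at 16 weeks. Of 7 endothelial markers 2 were higher and 1 lower at 8 weeks, and 0 and 1 at 16 weeks. The share higher at 8 weeks is near that of all genes. Endothelial sums overlapped chow at both times, with 347 to 677 CPM at 8 weeks, 280 to 447 CPM at 16 weeks and 362 to 399 CPM on chow. The part of any of these cell types in the lysosomal changes was not tested.

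Some members share ground with other genes. Of the 42, 15 overlap an annotated gene on the opposite strand and 4 one on the same strand. Libraries were made with a stranded kit, but whether counting used strand is not given in the sources used here, so reads of overlapping pairs may not be separable. Ctsa overlaps Pltp, which rose by log2 1.68 at 8 weeks and 1.02 at 16 weeks, and Ppt1 overlaps Cap1, which rose by 0.80 and 0.90. Hexa overlaps Tmem202, which rose by 4.69 and 4.87 but had at most 1.30 CPM at 8 weeks and 0.997 CPM at 16 weeks. Atp6v1b2 overlaps Slc18a1, which fell by 0.90 and 0.87. Glb1 overlaps Tmppe on the same strand, which fell by 0.88 at 8 weeks and was not called at 16 weeks. The values of these and the other overlapping members are uncertain to that extent.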

How the data were processed

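Liver total RNA was extracted with an RNeasy kit and sequenced as TruSeq Stranded Total RNA libraries, per the labels' protocols. For 21 libraries the authors deposited unnormalised counts by Ensembl identifier. The submitters' processing notes name GRCm38. The aligner, counter and strand setting were not given in the sources used here. Each sample's own deposited counts equalled its column of the series table in 21 of 21 samples. Groups follow the labels, and replicate numbers are in accession order and pair nothing. The labels give separate samples but not separate animals, so p-values measure the spread between these samples.

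Counts were fitted in 1 model of the 3 groups with edgeR 4.0.16 (R 4.3.3): filterByExpr, TMM, quasi-likelihood test, Benjamini-Hochberg adjustment over 17104 genes, called under 0.05. All 42 members passed the filter on low counts. CPM use TMM-scaled library sizes; ± is the standard error of the log2 fold change. Symbols, positions and lengths came from GENCODE M21, which named 99.56% of identifiers. Figures were drawn with matplotlib 3.10.9. The script was tested on simulated data. Members, pathway lists and markers were chosen with earlier results of these data known. All members are named; of each pathway list, up to 3 called genes with the largest change per direction could be named. A gene that this rule named is not reported here. Pltp, Cap1, Tmem202, Slc18a1 and Tmppe were chosen after their values were seen. Alternatives were DESeq2 1.42.0 (size factors or Wald test), scaling to total counts, other filters, fits of 2 groups and left-out libraries. Counts of pathway lists and roles without 8-week replicate 3 were added after seeing the data.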

Additional observations from a re-analysis of the deposited data

Results flagged for a closer look

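In 27 of 126 sets of values (42 genes in 3 groups), 1 library lay far from the rest of its group by Dixon's test at the 95% level, which chance alone does in about 1 of 20 sets. Of the 27, 22 were in 8-week replicate 3. It was the highest 8-week library for Ctsa (866 CPM, others 273 to 377), Ctsd (11792 CPM, others 690 to 2105), Ctsf (95.3 CPM, others 23.6 to 38.2), Ctsh (719 CPM, others 231 to 376) and Ctsz (2385 CPM, others 383 to 700). It was also the highest for Glb1 (64.1 CPM, others 20.5 to 29.8), Hexa (646 CPM, others 130 to 241), Gusb (227 CPM, others 61.1 to 117), Naglu (154 CPM, others 47.3 to 62.5) and Npc2 (783 CPM, others 136 to 357). It was the lowest for Ctsl (354 CPM, others 1210 to 1617), Ctso (38.3 CPM, others 62.6 to 72.8), Lgmn (106 CPM, others 224 to 286), Asah1 (36.6 CPM, others 62.2 to 84.8), Lamp1 (346 CPM, others 961 to 1122) and Lamp2 (361 CPM, others 576 to 756). It was also the lowest for Mcoln1 (18.3 CPM, others 35.7 to 43.2), Atp6v1a (8.83 CPM, others 63 to 104), Atp6v1b2 (71 CPM, others 131 to 176), Atp6v1h (11.3 CPM, others 56.8 to 78.4), Atp6ap1 (51.3 CPM, others 114 to 132) and Tfe3 (36.8 CPM, others 53.9 to 58.3). That library had the squamous epithelium and skeletal muscle transcripts, the low mitochondrial share and the low composition factor given above. Their part in these values was not tested.

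The other 5 were spread over libraries. Naglu stood out high in 16-week replicate 3 (66 CPM) and Mitf in 16-week replicate 8 (12.9 CPM). On chow, Ctsh stood out in replicate 3 (256 CPM), Asah1 in replicate 2 (49.6 CPM) and Atp6v1b2 in replicate 1 (79.5 CPM).

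Levels in the diet livers differed between 16 and 8 weeks (edgeR, adjusted p under 0.05) in 7 genes. A longer diet and older animals cannot be told apart in this comparison. Ctsk (log2 1.07), Ctss (0.68), Asah1 (0.39) and Galc (0.36) were higher at 16 weeks. Ctsh (-0.49), Smpd1 (-0.31) and Gaa (-0.23) were lower. Of all genes 10.6% were called higher and 11.0% lower, and 4 and 3 of 42 are not above those shares. Over 29 alternatives the call was kept in 7 for Ctsh, 8 for Gaa, 18 each for Ctss and Galc, 25 for Smpd1, 26 for Asah1 and 27 for Ctsk.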

How the results depend on the processing

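Of 126 member results (42 genes, 3 comparisons) recomputed under 29 alternatives each, 3470 of 3654 values kept their direction and their side of the threshold, 93 gained a call, 82 lost one and 9 turned round; a further change of sign in 130 values was not called in either fit and is among the 3470. Scaled to total counts alone, which raised the median of all genes by 0.12 (8 weeks), 0.53 (16 weeks) and 0.38 (16 against 8 weeks), 25 members were higher and 1 lower at 8 weeks, 31 and 0 at 16 weeks, and 15 and 0 between 16 and 8 weeks. Values then turned to 0.53 (Tpp1) and 0.22 (Smpd1) at 16 weeks, and to 0.0122 (Ctsh), 0.45 (Glb1), 0.18 (Gaa), 0.31 (Naglu) and 0.12 (Smpd1) between 16 and 8 weeks. Ctsf at 8 weeks turned to -0.31 without 8-week replicates 3, 4 and 5. Glb1 between 16 and 8 weeks turned to 0.31 without the 5 libraries highest in squamous transcripts.

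The 16 against 8 week counts moved with the settings. Members called lower numbered 1 with DESeq2 size factors, 5 with its Wald test, and 0 with no filter, with the 2 groups alone or without 8-week replicates 3, 4 and 5. Members called higher numbered 2 with no filter or the 2 groups alone, where 2226 genes were called. Without the 5 squamous-rich libraries, 5579 genes were called, with 12 members higher and 8 lower. Leaving out 1 library at a time gave 7563 to 9748 genes at 8 weeks (23 to 26 members higher, 3 lower), 8099 to 11308 at 16 weeks (21 to 26 higher, 4 to 6 lower), and 2248 to 5132 between 16 and 8 weeks (0 to 7 higher, 1 to 6 lower); the fewest higher members, 0, came without 16-week replicate 8. The causes were not tested. No paired analysis was possible because the labels give no replicate numbers that link the groups.

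With 5 to 8 libraries a group and no batch labels, small differences in members not called, whose standard errors reached 0.31 on the log2 scale at 8 weeks and 0.36 at 16 weeks, were not detectable here. Members not called had log2 differences of -0.13 to 0.47 at 8 weeks and -0.46 to 0.65 at 16 weeks.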
